A study of Mus musculus with 12 samples.

Results

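Imprinted genes were followed in sorted spermatogonia of adult mice. A list of 40 imprinted genes was matched by gene name to the deposited table of 55385 genes, and 39 of the 40 had a row. No row bore the name *Nespas*. Expression is given as TPM, the share of a library's transcripts that a gene takes after scaling for length. TPM sums both alleles, so it does not show which parental copy was read.

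The 12 libraries formed 6 groups of 2. A_undiff (undifferentiated spermatogonia, sorted as E-Cadherin+ CD9high KIT-) and A_diff (early differentiating spermatogonia, E-Cadherin+ CD9medium KIT+) came from wild-type (WT) C57BL/6 males of 2 to 3 mo. A_undiff were also taken from PRC1ctrl mice (Ring1-/-; Rnf2 F/+; Ddx4-Cre) and their PRC1cKO littermates (Ring1-/-; Rnf2 F/-; Ddx4-Cre), both on a mixed C57BL/6 and FVB/NJ background. *Ring1* and *Rnf2* encode the alternative catalytic subunits of Polycomb repressive complex 1 (PRC1), the loss of *Ring1* is shared by both genotypes, and Ddx4-Cre acts in germ cells. One PRC1ctrl and PRC1cKO pair of groups was sampled untreated at 2 mo as low-input Smart-Seq2 libraries of pooled cells. The other pair was injected subcutaneously once a day from 1 mo of age, about 30 times, with Win18446, which blocks the synthesis of retinoic acid in the testis. Each injection held 50 µl at 40 µg/µl in DMSO, cells were taken 24 h after the last one, and stranded polyA libraries were made as for the WT cells. Library kit and treatment cannot be told apart between the PRC1 groups.

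Imprinted genes are read mainly from one parental allele, because DNA methylation laid down in the oocyte or in the male germ line marks an imprinting control region. In the male germ line, maternal methylation is erased before birth, and paternal methylation is set at a few control regions, among them those of *H19*-*Igf2*, *Dlk1*-*Dio3* and *Zdbf2*. Many imprinted genes act in fetal and placental growth, with growth promoters such as IGF2 usually read from the paternal allele and growth inhibitors such as GRB10 from the maternal allele. KRAB zinc finger proteins, among them ZFP57, hold these methylation marks in the early embryo, and ZFP57 recognizes the methylated hexamer TGCCGC.

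The promoter sequences of 8 genes on which the comparisons turn are shown first. Of these genes, 4 were higher in A_diff and 4 were among the 5 lower under the label PRC1cKO after Win18446. Each sequence is the 250 bases before the most upstream RefSeq start of that gene on GRCm38.p6, written 5′ to 3′ on the strand of the gene. Capitals mark TGCCGC or its reverse complement GCGGCA. The *Zdbf2* window lies upstream of the start of *Zdbf2* in the deposited table, at a longer transcript. The *Plagl1* and *Grb10* windows lie inside the gene as given in that table. The *Rian*, *Dio3* and *Zim1* windows overlap its start in part. Of the 49 windows of members checked, 33 were followed by bases near the start of a gencode transcript of the gene. Whether a window acts as a promoter in these cells was not tested.

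Grb10, chr11:12037421-12037670, minus strand: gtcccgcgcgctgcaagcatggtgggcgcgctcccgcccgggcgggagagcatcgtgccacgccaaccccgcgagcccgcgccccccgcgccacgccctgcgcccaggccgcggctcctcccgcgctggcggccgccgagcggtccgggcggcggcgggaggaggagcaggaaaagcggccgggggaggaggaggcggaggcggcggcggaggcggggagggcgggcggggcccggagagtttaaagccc
Plagl1, chr10:13090582-13090831, plus strand: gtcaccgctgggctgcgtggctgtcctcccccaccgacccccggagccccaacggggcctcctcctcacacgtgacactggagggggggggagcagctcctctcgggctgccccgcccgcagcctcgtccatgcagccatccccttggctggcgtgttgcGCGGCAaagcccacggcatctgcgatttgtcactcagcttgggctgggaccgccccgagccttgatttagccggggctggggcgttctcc
Ascl2, chr7:142969265-142969514, minus strand: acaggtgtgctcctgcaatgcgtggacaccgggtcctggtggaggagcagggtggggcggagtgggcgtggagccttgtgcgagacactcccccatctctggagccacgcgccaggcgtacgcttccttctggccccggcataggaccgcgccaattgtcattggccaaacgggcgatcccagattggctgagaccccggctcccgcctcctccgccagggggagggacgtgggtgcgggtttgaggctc
Nnat, chr2:157559828-157560077, plus strand: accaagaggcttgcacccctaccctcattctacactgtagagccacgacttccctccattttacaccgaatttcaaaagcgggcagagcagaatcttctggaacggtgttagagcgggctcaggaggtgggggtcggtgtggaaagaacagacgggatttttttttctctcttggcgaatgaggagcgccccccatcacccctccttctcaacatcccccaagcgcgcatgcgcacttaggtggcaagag
Rian, chr12:109603695-109603944, plus strand: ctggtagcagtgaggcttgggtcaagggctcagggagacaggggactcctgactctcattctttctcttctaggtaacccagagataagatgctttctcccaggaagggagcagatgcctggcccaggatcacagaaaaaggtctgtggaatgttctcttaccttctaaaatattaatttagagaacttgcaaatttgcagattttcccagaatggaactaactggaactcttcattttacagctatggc
Dio3, chr12:110278980-110279229, plus strand: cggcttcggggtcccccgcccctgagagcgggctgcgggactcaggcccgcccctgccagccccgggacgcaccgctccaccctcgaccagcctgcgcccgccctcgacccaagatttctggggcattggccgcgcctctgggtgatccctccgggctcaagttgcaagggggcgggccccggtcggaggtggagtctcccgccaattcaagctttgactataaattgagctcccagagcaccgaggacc
Zdbf2, chr1:63200108-63200357, plus strand: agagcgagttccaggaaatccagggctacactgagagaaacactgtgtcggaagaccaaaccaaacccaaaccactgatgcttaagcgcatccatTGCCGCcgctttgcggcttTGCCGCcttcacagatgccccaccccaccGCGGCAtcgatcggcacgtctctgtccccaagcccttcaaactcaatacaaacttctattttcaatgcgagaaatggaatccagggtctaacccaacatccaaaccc
Zim1, chr7:6696433-6696682, minus strand: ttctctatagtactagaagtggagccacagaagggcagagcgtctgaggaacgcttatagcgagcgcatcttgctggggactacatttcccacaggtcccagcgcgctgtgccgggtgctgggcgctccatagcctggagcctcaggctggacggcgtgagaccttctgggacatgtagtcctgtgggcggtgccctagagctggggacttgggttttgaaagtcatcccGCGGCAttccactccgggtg

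The *Zdbf2* window held 3 such hexamers, the *Plagl1* and *Zim1* windows held 1 each, and the other 5 windows held 0. Of all 32851 RefSeq windows of this length, 8.68% held at least 1, against 6 of the 33 most upstream windows of imprinted genes (18.2%). CpG dinucleotides ranged from 0 in the *Rian* window to 40 in the *Grb10* window, with a median of 6 over all windows and 10 over the 33 members. *Dio3* had 21, *Plagl1* and *Ascl2* 19 each, *Zim1* 14, *Zdbf2* 13 and *Nnat* 12. The window of *Mirg*, the other lower member after Win18446, is not shown and held 10 CpG dinucleotides and 0 hexamers. A match is a description of these letters, and methylation was not measured in these libraries. No window was used for *Kcnq1*, *H19*, *Sgce*, *Peg10*, *Rtl1*, *Nespas* and *Impact*. *Impact* lies on chr18, whose windows were left out for members and kept in the share over all windows.

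Before the members are described, the labels were checked. *Ring1* stood at 0.03 to 0.25 TPM in the 8 PRC1 libraries and at 8.61 to 19.9 TPM in the 4 WT libraries. *Rnf2* was no lower in the libraries labelled PRC1cKO, with 28.3 and 47.6 in PRC1ctrl against 56.7 and 67.5 at 2 mo, and 78.1 and 67.2 against 86.2 and 93.1 after Win18446. A gene-level TPM does not separate transcripts that lack the floxed exons, so the libraries are called here by their label. All 5 germ cell markers (*Ddx4*, *Dazl*, *Zbtb16*, *Gfra1* and *Sall4*) were at 1 TPM or more in every library. The libraries held 12422 to 16599 genes at 1 TPM or more, the 50 highest genes took 19.8% to 39.2% of the TPM, and mitochondrial genes took 4.28% to 16.7%, with the upper values in the 2 mo libraries.

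The 39 members together took 442 to 1087 TPM per library, with 442 to 577 TPM in the 2 mo libraries, 633 to 795 TPM in WT and 910 to 1087 TPM after Win18446. In total, 21 members were at 1 TPM or more in each of the 12 libraries. *Airn*, *Rtl1*, *Asb4*, *Magel2*, *Kcnq1* and *Kcnq1ot1* stayed under a mean of 1 TPM in all 6 groups, with single values from 0 to 0.73 TPM. *Airn* and *Kcnq1ot1* are the long noncoding RNAs that silence neighbouring genes in cis in other tissues, and *Rtl1* and *Magel2* are a retrotransposon-derived gene and a ubiquitin ligase regulator. *Airn*, *Mirg*, *Rtl1*, *Dio3*, *Asb4* and *Slc22a18* were each listed at 0 in at least 1 library. Members with a mean of 10 TPM or more numbered 17 in WT A_undiff, 15 in WT A_diff, 10 in each 2 mo group, 22 in PRC1ctrl after Win18446 and 18 in PRC1cKO after Win18446.

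**Figure D1:**
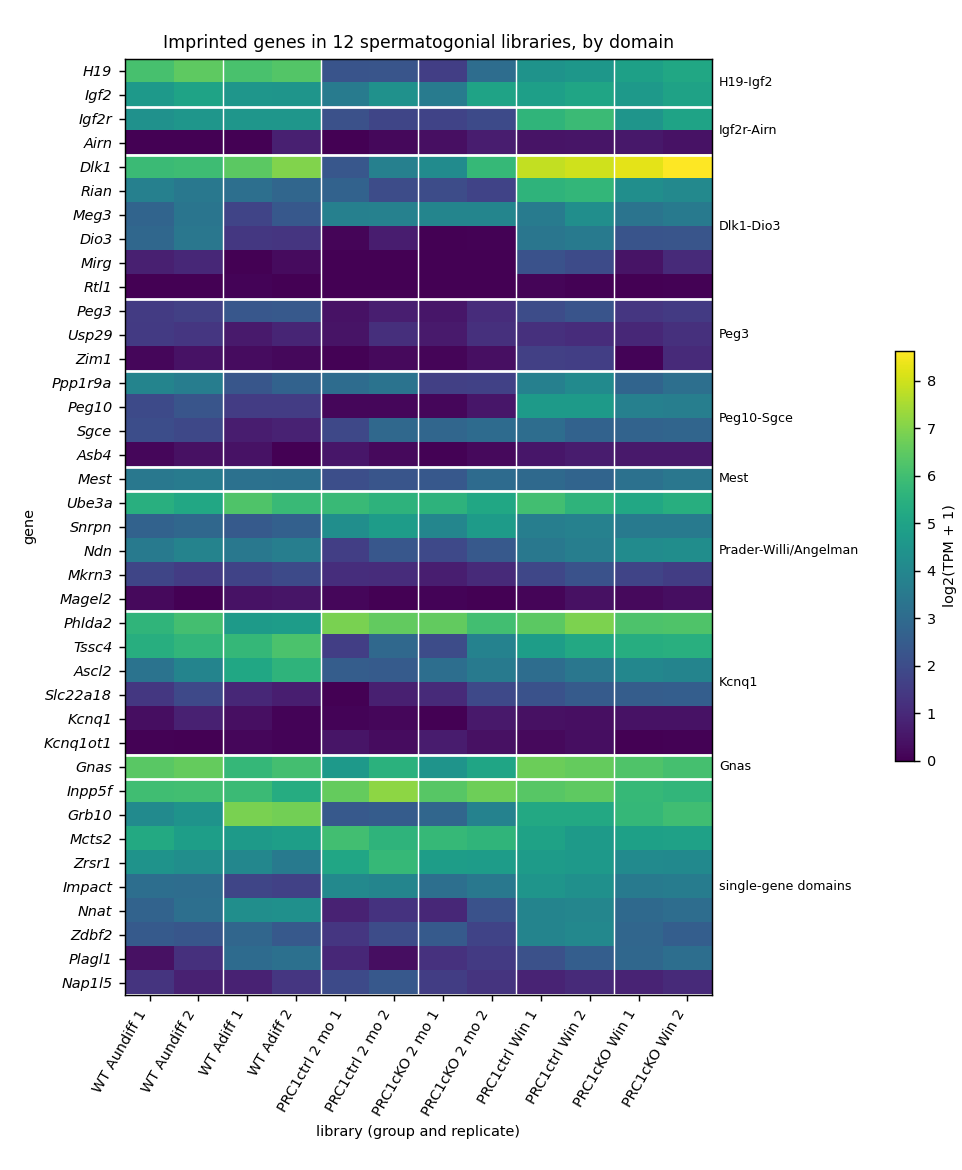
Heat map of log2(TPM + 1) for the 39 imprinted genes (rows, grouped by imprinted domain and ordered by mean level) in the 12 libraries (columns, 2 per group). *Dlk1* reached the highest value, 395 TPM in a PRC1cKO library after Win18446, and the rows of *Airn*, *Rtl1*, *Asb4*, *Magel2*, *Kcnq1* and *Kcnq1ot1* stayed dark throughout.

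*Dlk1*, which encodes a membrane protein related to Notch ligands, had the highest mean over the 12 libraries (135 TPM). Its TPM was 58.7 and 61.1 in WT A_undiff, 87.1 and 127 in WT A_diff, 4.13 and 12.5 in PRC1ctrl and 16.9 and 54.0 in PRC1cKO at 2 mo, and 230 and 258 in PRC1ctrl and 311 and 395 in PRC1cKO after Win18446. The 3 pairs of groups did not overlap one another. *Inpp5f*, an inositol polyphosphate phosphatase with a mean of 77.2 TPM, varied far less. It stood at 62.6 and 64.1 in WT A_undiff, 58.0 and 39.5 in WT A_diff, 94.7 and 143 in PRC1ctrl and 83.5 and 106 in PRC1cKO at 2 mo, and 83.2 and 88.3 in PRC1ctrl and 54.0 and 49.9 in PRC1cKO after Win18446.

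*Phlda2*, a placental growth inhibitor, had a mean of 74.1 TPM. Its values were 48.6 and 65.9 in WT A_undiff, 24.8 and 26.2 in WT A_diff, 117 and 92.5 in PRC1ctrl and 92.8 and 64.0 in PRC1cKO at 2 mo, and 87.4 and 122 in PRC1ctrl and 72.7 and 75.8 in PRC1cKO after Win18446. WT A_diff was the lowest group of the 6. *Gnas*, which encodes the stimulatory G protein alpha subunit and has several promoters of which only some are imprinted, had a mean of 63.3 TPM. It stood at 85.2 and 95.2 in WT A_undiff, 52.5 and 65.7 in WT A_diff, 24.2 and 44.5 in PRC1ctrl and 21.3 and 32.3 in PRC1cKO at 2 mo, and 102 and 94.9 in PRC1ctrl and 75.3 and 66.4 in PRC1cKO after Win18446. Of its exonic bases, 22.0% lie under a gene on the other strand.

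*Ube3a*, a ubiquitin ligase that is imprinted in neurons, had a mean of 48.5 TPM and ranged from 34.2 to 75.2 TPM. Of its exonic bases, 27.3% lie under genes on the other strand. Its values were 42.9 and 34.8 in WT A_undiff, 75.2 and 56.8 in WT A_diff, 56.2 and 47.0 in PRC1ctrl and 47.0 and 34.2 in PRC1cKO at 2 mo, and 63.7 and 47.7 in PRC1ctrl and 35.2 and 41.3 in PRC1cKO after Win18446. *Mcts2*, a retrocopy of *Mcts1* (mean of 37.2 TPM), was at 37.3 and 27.9 in WT A_undiff, 25.2 and 27.3 in WT A_diff, 64.0 and 48.4 in PRC1ctrl and 53.4 and 49.1 in PRC1cKO at 2 mo, and 30.7 and 24.8 in PRC1ctrl and 29.1 and 29.7 in PRC1cKO after Win18446. Reads of a retrocopy can be shared with its parent gene, so these values are uncertain, as are those of the retrocopy *Zrsr1*.

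*H19*, a maternally expressed long noncoding RNA, had a mean of 35.8 TPM. It was at 68.4 and 87.9 in WT A_undiff and 70.8 and 78.8 in WT A_diff, at 3.75 and 3.85 in PRC1ctrl and 2.02 and 7.57 in PRC1cKO at 2 mo, and at 20.5 and 22.5 in PRC1ctrl and 29.1 and 34.1 in PRC1cKO after Win18446. Its neighbour *Igf2*, the growth factor, ranged only from 10.9 to 32.4 TPM over the 12 libraries. The ratio of *H19* to *Igf2* TPM was therefore 2.82 to 3.61 in WT, 0.183 to 0.343 at 2 mo, 0.693 and 0.725 in PRC1ctrl after Win18446 and 1.11 and 1.19 in PRC1cKO after Win18446. WT, the 2 mo groups and the Win18446 groups differ in genotype, strain background, library kit or treatment, which cannot be told apart. PRC1ctrl and PRC1cKO after Win18446 share background, kit and treatment and differ by the genotype of their label. Of the exonic bases of *Igf2*, 62.8% are shared with an overlapping gene on the same strand.

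The 3 noncoding RNAs of the maternal *Dlk1*-*Dio3* allele are read in one direction and carry many small RNAs. *Rian* hosts small nucleolar RNAs, and *Mirg* hosts microRNAs. *Meg3*, *Rian* and *Mirg* summed to 18.95 and 20.0 TPM in WT A_undiff, 10.4 and 10.6 in WT A_diff, 15.8 to 17.9 at 2 mo, 62.8 and 73.0 in PRC1ctrl after Win18446 and 27.4 and 27.7 in PRC1cKO after Win18446. *Dlk1* alone took 67.3% and 69.8% of the summed TPM of the domain in WT A_undiff, 87.9% and 91.3% in WT A_diff, 75.5% and 76.0% in PRC1ctrl after Win18446 and 90.9% and 92.6% in PRC1cKO after Win18446. At 2 mo the share was 18.7% and 43.2% in PRC1ctrl and 49.3% and 76.6% in PRC1cKO.

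**Figure D2:**
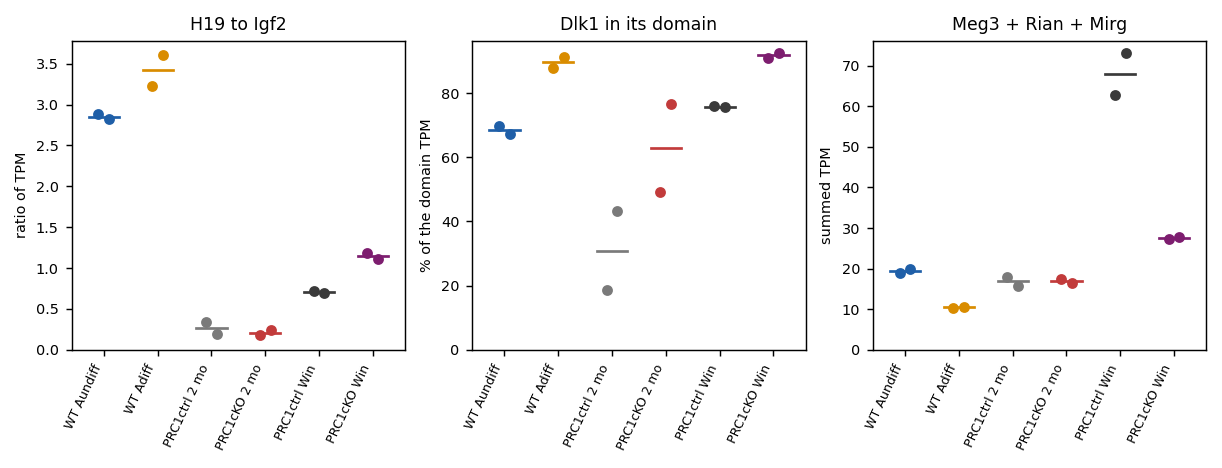
Ratio of *H19* to *Igf2* TPM (left), *Dlk1* as a percent of the summed TPM of its domain (middle) and the summed TPM of *Meg3*, *Rian* and *Mirg* (right), by group. Points are libraries and lines are means of 2; the ratio was above 2.8 in the 4 WT libraries and below 1.2 in the other libraries.

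Comparing A_diff with A_undiff in WT addresses which of these genes changed upon differentiation. Of 31 members that passed the filter on low values, 4 were higher and 5 were lower in A_diff (limma, adjusted p below 0.05 over all genes with a log2 fold change beyond 1 in size). In the background of 15470 genes tested, 11.1% were higher and 9.24% were lower. The median log2 fold change was -0.29 over the 31 members and 0.15 over all genes. Scaling by the median of ratios moved the median of all genes by -0.16, and it turned the share of lower calls among all genes from 45.3% to 60.2%. The 9 members stayed called and *Meg3* was added.

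*Grb10* (chr11:11930508-12038683, minus strand, GRCm38), an adaptor that dampens insulin and IGF receptor signalling, had the highest log2 fold change of TPM + 1. Its TPM was 16.4 and 20.8 in A_undiff and 117 and 109 in A_diff, a 6.07-fold difference of the means. The log2 fold change was 2.55 (SE 0.16, adjusted p = 0.000703). Both A_diff libraries lay far above both A_undiff libraries.

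*Plagl1* (chr10:13060504-13131694, plus strand), a zinc finger transcription factor, stood at 0.31 and 1.28 TPM in A_undiff and 7.01 and 8.09 TPM in A_diff. Its log2 fold change was 2.30 (SE 0.33, adjusted p = 0.00441), and its starting level was near the filter of 1 TPM. The ratio of its means was 9.5, above that of *Grb10*, and with a pseudocount of 0.1 its log2 fold change of 3.34 was above the 2.60 of *Grb10*. *Ascl2* (chr7:142966829-142969264, minus strand), a basic helix-loop-helix factor of the placenta, rose from 8.72 and 13.9 TPM to 34.6 and 48.4 TPM. The log2 fold change was 1.80 (SE 0.27, adjusted p = 0.00473). *Nnat* (chr2:157560078-157562522, plus strand), which encodes the small membrane protein neuronatin, rose from 5.69 and 7.89 TPM to 18.1 and 19.3 TPM, with a log2 fold change of 1.35 (SE 0.22, adjusted p = 0.00575). In all 4 genes the groups did not overlap, which is no further support, since the genes were chosen by the call on the same libraries. The 4 lie in domains classed by a mark laid down in the oocyte, as do 24 of the 31 members tested. That mark is erased in the male germ line before birth.

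*Dio3* (chr12:110279068-110281097, plus strand), the deiodinase that inactivates thyroid hormone, fell in A_diff. It was at 6.42 and 9.69 TPM in A_undiff and at 1.61 and 1.49 TPM in A_diff, a log2 fold change of -1.80 (SE 0.27, adjusted p = 0.0051). *Impact*, a regulator of translation under amino acid shortage, fell from 7.72 and 7.46 TPM to 2.50 and 2.21 TPM (log2 fold change -1.36, adjusted p = 0.00662). *Phlda2* fell from the values given above by 1.12 on the log2 scale (adjusted p = 0.00636). The 3 genes had no overlap between the groups, which again adds nothing to the call.

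The other 2 lower genes were neighbours in the *Peg10*-*Sgce* domain. *Ppp1r9a*, which encodes the actin-binding protein neurabin, fell from 13.8 and 11.72 TPM to 3.97 and 5.57 TPM, with a log2 fold change of -1.27 (SE 0.24, adjusted p = 0.00917). *Sgce*, the epsilon subunit of sarcoglycan, fell from 3.1 and 2.68 TPM to 0.63 and 0.76 TPM, with a log2 fold change of -1.20 (SE 0.26, adjusted p = 0.0159). Without the first A_undiff library *Ppp1r9a* was no longer called, without the second *Phlda2* was no longer called, and without either one *Sgce* no longer passed the filter.

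*Dlk1*, *Peg3*, *Ube3a* and *Gnas* passed the adjusted p of 0.05 without reaching the fold threshold. Their log2 fold changes were 0.80 for *Dlk1* (adjusted p = 0.0216), 0.80 for *Peg3* (adjusted p = 0.0435), 0.74 for *Ube3a* (adjusted p = 0.026) and -0.61 for *Gnas* (adjusted p = 0.0276). Under median-of-ratios scaling only *Gnas* of these 4 kept an adjusted p under 0.05. *H19* (log2 fold change -0.05), *Igf2* (-0.30) and *Igf2r* (0.08) did not pass, and neither did *Mest* (-0.33), *Snrpn* (-0.25) or *Ndn* (-0.13). The remaining tested members, among them *Meg3* at -0.97 and *Slc22a18* at -0.82, did not pass either.

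**Figure D3:**
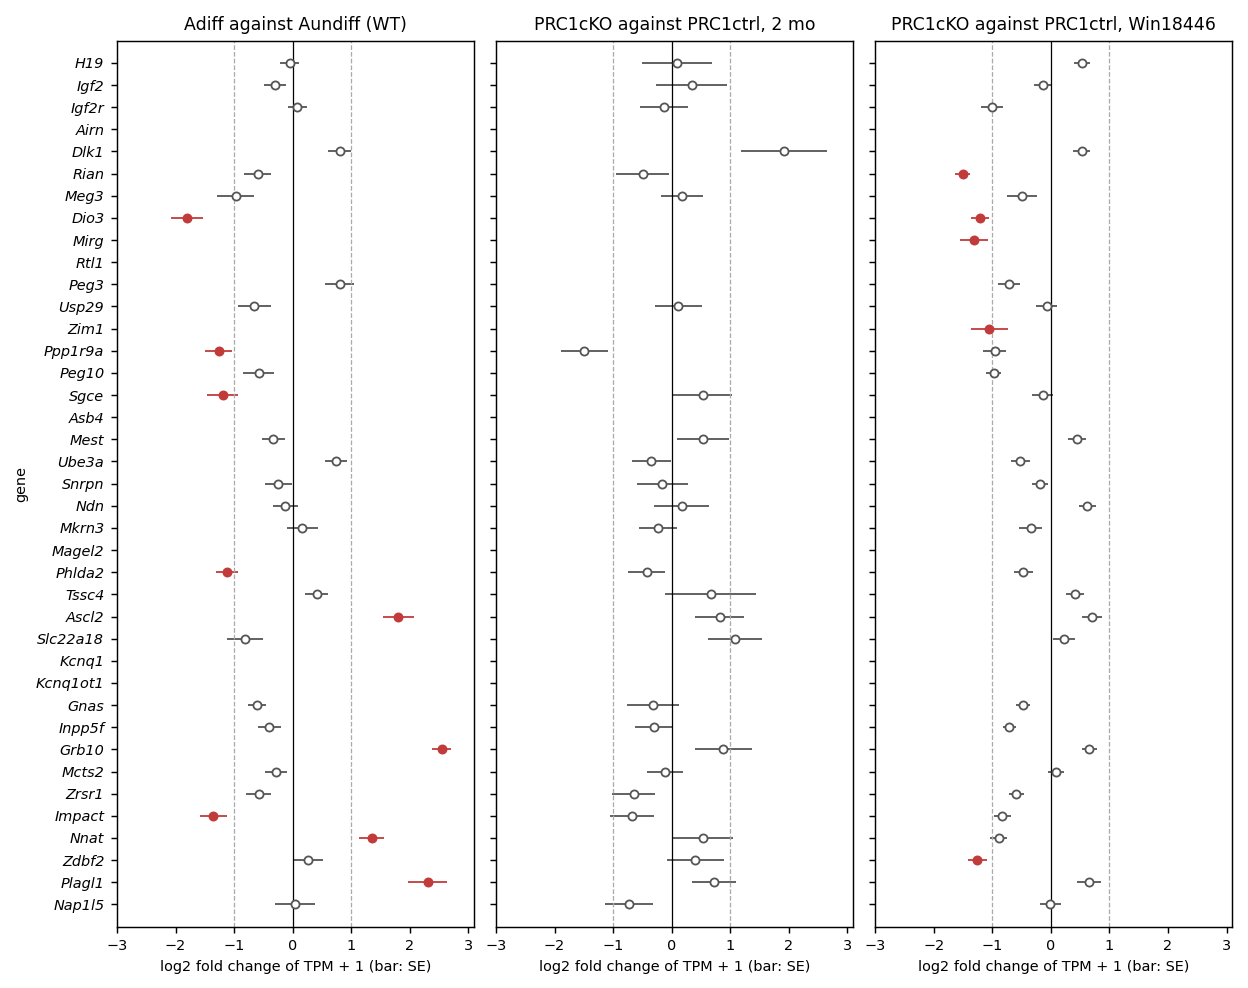
Log2 fold change of TPM + 1 with its standard error for each tested member in the 3 comparisons, with filled points for called members (adjusted p below 0.05 and beyond the dashed lines at 1 in size). Called points number 9 in WT, 0 at 2 mo and 5 after Win18446; members without a point did not pass the filter.

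The comparison of PRC1cKO with PRC1ctrl at 2 mo asks which members changed with the loss of PRC1 in untreated A_undiff. Among the 28 members tested by limma, 0 were called, where 0.222% of 13953 genes were higher and 1.94% were lower under the label PRC1cKO. At an unadjusted p under 0.05 there were 2 members and 1985 genes in all. The share of lower calls among all genes was 89.7%, and it was 26.2% without the second PRC1ctrl library and 60.3% without the first. *Ppp1r9a* stood at 7.25 and 8.67 TPM in PRC1ctrl and 2.12 and 2.21 TPM in PRC1cKO, with a log2 fold change of -1.50 (SE 0.40, adjusted p = 0.157). For *Dlk1* the log2 fold change was 1.92 (SE 0.73, adjusted p = 0.326), with 4.13 and 12.5 TPM against 16.9 and 54.0 TPM. The groups of neither gene overlapped, and neither passed. The higher *Dlk1* value was over 3 times the lower one in each group.

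The precision at 2 mo was low in this fit, which did not pair same-numbered libraries. The median standard error over all genes was 0.42 at 2 mo, 0.22 in WT and 0.17 after Win18446. Median-of-ratios scaling, which moved the median of all genes by -0.26, called 1 member, *Ppp1r9a*. *Dio3*, *Peg3*, *Peg10*, *Zim1* and *Mirg* were not tested at 2 mo. *Peg10* was at 0.10 to 0.43 TPM, *Mirg* was listed at 0 in all 4 libraries, and *Dio3* was at 0.08 and 0.61 TPM in PRC1ctrl and listed at 0 and 0.03 in PRC1cKO.

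After Win18446, 5 of 33 tested members were lower under the label PRC1cKO and 0 were higher (limma, same thresholds). In the background of 16521 genes, 10.9% were lower and 1.27% were higher. The median log2 fold change was -0.47 over the members and -0.19 over all genes. Median-of-ratios scaling moved the median of all genes by 0.22 and the share of lower calls among all genes from 89.6% to 76.7%. Of the 5 lower members, 3 belong to the *Dlk1*-*Dio3* domain and 1, *Zdbf2*, to another domain with a paternal germ-line mark. That class held 8 of the 33 tested members. In it, *H19* (log2 fold change 0.53) and *Dlk1* (0.52) were on the higher side at an adjusted p under 0.05. *Igf2* (-0.14) and *Meg3* (-0.49) did not pass.

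*Rian* (chr12:109603808-109661716 in the deposited table, plus strand) had the largest log2 fold change of TPM + 1 among members. Its TPM was 48.3 and 51.7 in PRC1ctrl and 18.0 and 15.9 in PRC1cKO, a 2.95-fold lower mean. The log2 fold change was -1.51 (SE 0.13, adjusted p = 0.00176). *Mirg* (chr12:109729764-109749460, plus strand) stood at 3.50 and 2.91 TPM in PRC1ctrl and at 0.38 and 1.06 TPM in PRC1cKO. Its log2 fold change was -1.31 (SE 0.24, adjusted p = 0.00854), and it was lost as a call without the first PRC1cKO library (adjusted p = 0.055). The ratio of its means was 4.45, above that of *Rian*. The groups of both RNAs did not overlap, which likewise adds nothing to the call.

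*Dio3*, at the far end of the same domain, was at 9.56 and 10.6 TPM in PRC1ctrl and 3.74 and 3.79 TPM in PRC1cKO. Its log2 fold change was -1.21 (SE 0.16, adjusted p = 0.00321). *Dlk1*, at the other end, had a difference of the opposite sign, with 230 and 258 TPM against 311 and 395 TPM and a log2 fold change of 0.52 (SE 0.15, adjusted p = 0.0342) that did not reach the fold threshold. *Meg3* lay at 10.95 and 18.4 TPM in PRC1ctrl and 9.0 and 10.7 TPM in PRC1cKO, and it did not pass although the groups did not overlap (log2 fold change -0.49, adjusted p = 0.179). *Rtl1* was at 0.09 TPM or less in every library.

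*Zdbf2* (chr1:63273265-63314576, plus strand), a zinc finger gene read from the paternal allele, stood at 13.8 and 15.5 TPM in PRC1ctrl and 6.14 and 4.99 TPM in PRC1cKO. Its log2 fold change was -1.26 (SE 0.16, adjusted p = 0.00335). *Zim1* (chr7:6671269-6696450, minus strand), a zinc finger gene of the *Peg3* domain, was low throughout, at 2.11 and 2.06 TPM against 0.07 and 1.06 TPM. Its log2 fold change was -1.06 (SE 0.32, adjusted p = 0.0468), and it was called in 2 of the 8 alternatives in which it was tested. *Rian*, *Dio3* and *Zdbf2* were called in all 9 alternatives, with log2 fold changes from -1.59 to -1.27, from -1.39 to -1.01 and from -1.38 to -1.04.

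**Figure D4:**
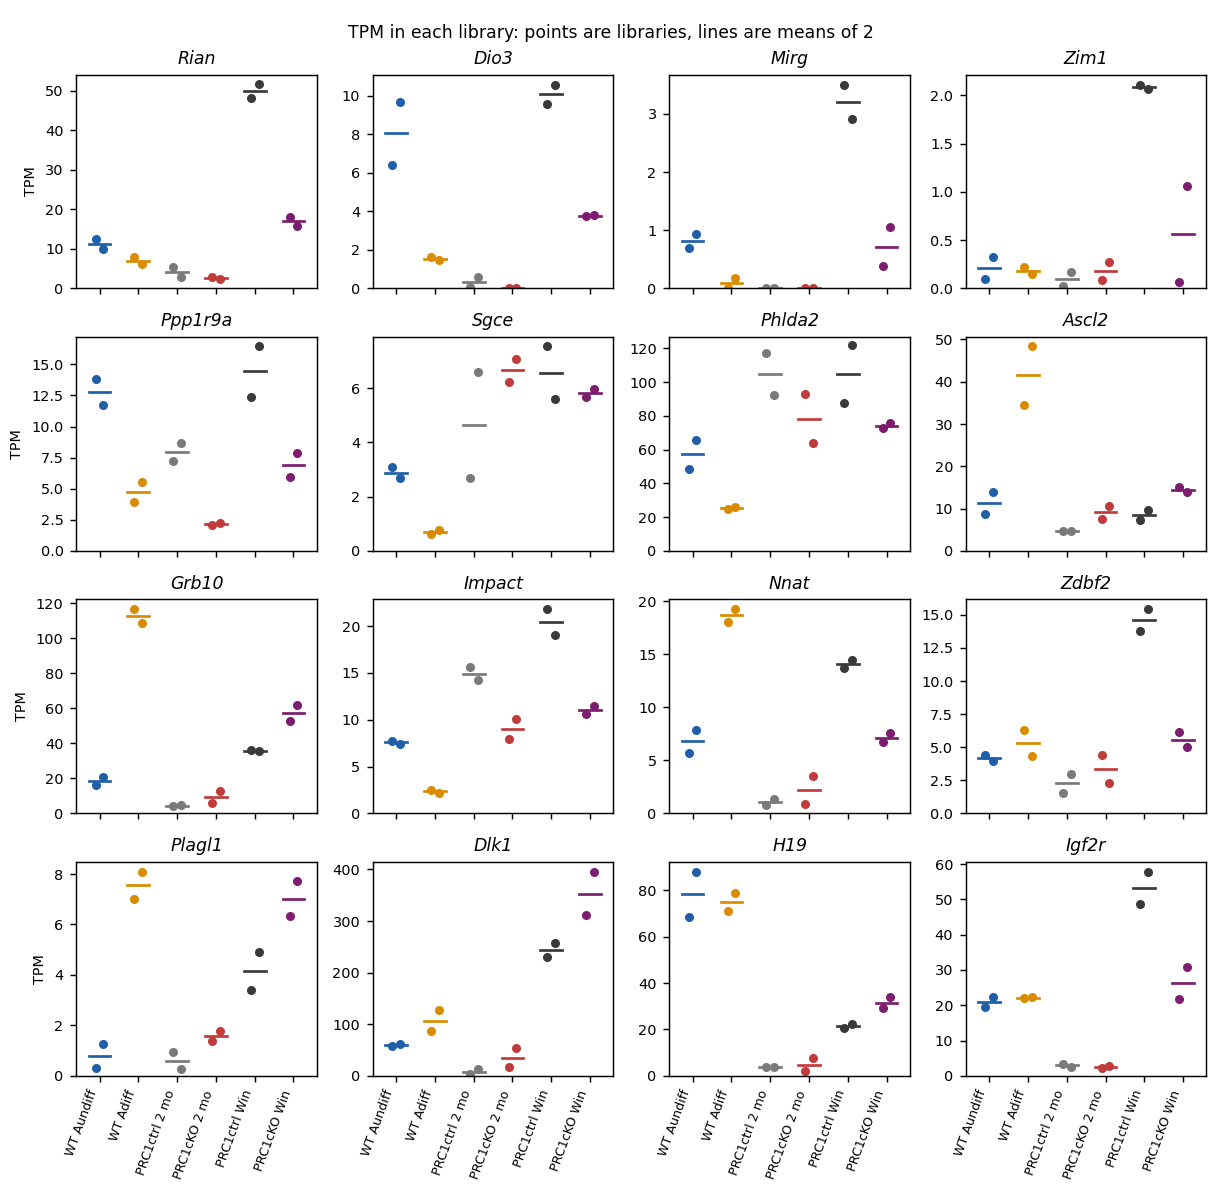
TPM of the 13 members called in a comparison and of *Dlk1*, *H19* and *Igf2r*, by group, on axes that start at 0. Points are libraries and lines are means of 2; *Grb10*, *Ascl2*, *Plagl1* and *Nnat* were highest in WT A_diff, and *Rian*, *Mirg*, *Zim1*, *Zdbf2* and *Igf2r* were highest in PRC1ctrl after Win18446.

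Among the members called in a comparison, the 2 mo libraries held the lowest *Grb10*, with 4.29 and 4.66 TPM in PRC1ctrl and 6.18 and 13.06 TPM in PRC1cKO. *Nnat* was at 0.77 and 1.39 TPM in PRC1ctrl and 0.93 and 3.55 TPM in PRC1cKO at 2 mo, and at 13.7 and 14.5 TPM in PRC1ctrl and 6.72 and 7.58 TPM in PRC1cKO after Win18446. *Plagl1* was at 0.94 and 0.26 TPM in PRC1ctrl and 1.37 and 1.79 TPM in PRC1cKO at 2 mo, and at 3.42 and 4.91 TPM in PRC1ctrl and 6.34 and 7.71 TPM in PRC1cKO after Win18446. After Win18446 *Nnat* was lower and *Plagl1* higher in PRC1cKO than in PRC1ctrl, without overlap. *Ascl2* was at 4.80 and 4.62 TPM in PRC1ctrl and 7.61 and 10.7 TPM in PRC1cKO at 2 mo. *Rian* was at 7.91 and 6.13 TPM in WT A_diff, 5.51 and 3.01 TPM in PRC1ctrl and 3.00 and 2.30 TPM in PRC1cKO at 2 mo. *Mirg* was at 0.69 and 0.94 TPM in WT A_undiff and listed at 0 and 0.18 in WT A_diff. These noncoding RNAs were thus highest in PRC1ctrl after Win18446.

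*Zdbf2* was at 6.27 and 4.35 TPM in WT A_diff, 1.55 and 3.00 TPM in PRC1ctrl and 4.39 and 2.31 TPM in PRC1cKO at 2 mo. *Zim1* stayed at 0.03 to 0.33 TPM in the WT and 2 mo libraries. *Impact* was at 15.7 and 14.2 TPM in PRC1ctrl and 7.95 and 10.04 TPM in PRC1cKO at 2 mo, and at 21.9 and 19.1 TPM in PRC1ctrl and 10.7 and 11.5 TPM in PRC1cKO after Win18446. Its 2 settings had the same order of groups. *Sgce* was at 2.68 and 6.61 TPM in PRC1ctrl and 6.23 and 7.08 TPM in PRC1cKO at 2 mo, and at 7.54 and 5.61 TPM in PRC1ctrl and 5.66 and 5.98 TPM in PRC1cKO after Win18446, with overlapping groups in both. The other members are given by their range over the 12 libraries. *Tssc4* ranged from 2.04 to 71.5 TPM, *Zrsr1* from 10.7 to 53.6 TPM, *Snrpn*, a splicing factor gene, from 4.48 to 26.0 TPM, and *Mest*, a hydrolase gene, from 3.21 to 11.1 TPM. *Slc22a18* (0 to 4.99 TPM), *Nap1l5* (0.74 to 4.23 TPM), *Mkrn3* (0.66 to 3.51 TPM) and *Usp29* (0.37 to 1.74 TPM) were low.

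A further group of members differed after Win18446 at an adjusted p under 0.05 without a log2 fold change beyond 1. In this group *Igf2r*, the receptor that clears IGF2, stood at 48.6 and 57.8 TPM in PRC1ctrl and 21.8 and 30.95 TPM in PRC1cKO (log2 fold change -0.9998, just short of the threshold, adjusted p = 0.01). *Peg10*, a retrotransposon-derived gene of the placenta, was at 25.2 and 24.9 TPM against 12.5 and 11.97 TPM (log2 fold change -0.98, adjusted p = 0.00347). *Ppp1r9a* was at 12.4 and 16.5 TPM against 5.92 and 7.91 TPM (log2 fold change -0.96, adjusted p = 0.0134). Below them came *Nnat* (-0.89), *Impact* (-0.83), *Peg3* (-0.72), *Inpp5f* (-0.71), *Zrsr1* (-0.59) and *Gnas* (-0.47).

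The members on the higher side after Win18446 were *Ascl2*, *Grb10*, *Ndn*, *H19* and *Dlk1*. *Ascl2* was at 7.39 and 9.78 TPM in PRC1ctrl and 15.1 and 13.9 TPM in PRC1cKO (log2 fold change 0.70, adjusted p = 0.0234). *Grb10* was at 35.9 and 35.8 TPM against 52.5 and 62.1 TPM (log2 fold change 0.66, adjusted p = 0.0107). *Ndn*, which encodes the growth regulator necdin, was at 10.1 and 11.8 TPM against 16.8 and 17.9 TPM (log2 fold change 0.62, adjusted p = 0.0205). *Plagl1* stood at 0.65 with an adjusted p of 0.0519. *Grb10*, *Ascl2* and *Plagl1*, which rose in WT A_diff, thus had log2 fold changes of 0.66, 0.70 and 0.65 here and of 0.88, 0.82 and 0.72 at 2 mo, where none of the 3 passed (adjusted p = 0.504, 0.46 and 0.47). *Nnat*, the other gene that rose in A_diff, had log2 fold changes of -0.89 after Win18446 and 0.53 at 2 mo.

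Whether the difference under the label PRC1cKO changed with treatment was tested as an interaction over the 8 PRC1 libraries, in which library kit and treatment cannot be told apart. By limma 0 of 33 members were called, where 2.76% of 18354 genes were higher and 4.98% were lower. At an unadjusted p under 0.05 there were 8 members and 4541 genes in all. The 33 include *Dio3*, *Peg3*, *Peg10*, *Zim1* and *Mirg*, which were too low to be tested at 2 mo, so their values here rest on the difference after Win18446 and are no test of a change with treatment. Among the members tested at 2 mo, *Zdbf2* had a log2 difference of -1.66 (adjusted p = 0.0839). *Dlk1* had 1.92 at 2 mo and 0.52 after Win18446, a difference of -1.39 (SE 0.87, adjusted p = 0.367). The median over members was -0.22, and it was 0.30 under median-of-ratios scaling, which moved the median of all genes by 0.55 and the share of lower calls among all genes from 64.4% to 22.5%.

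Markers of other cell types were read in the same libraries. The 5 Leydig cell markers (*Star*, *Cyp11a1*, *Cyp17a1*, *Hsd3b1* and *Insl3*) summed to 20.98 to 41.5 TPM in WT A_undiff, 10.4 to 40.1 in WT A_diff, 1.01 to 1.18 in PRC1ctrl and 20.6 to 46.7 in PRC1cKO at 2 mo, and 81.9 to 396 in PRC1ctrl and 20.2 to 72.4 in PRC1cKO after Win18446. The first PRC1ctrl library after Win18446 stood apart, with *Insl3* at 292 TPM against 64.5 TPM in the second. At 2 mo *Hsd3b1* was called higher under the label PRC1cKO (log2 fold change 2.88, adjusted p = 0.0421). The 8 peritubular and stromal markers summed to 103 to 114 TPM in PRC1ctrl and 55.7 to 55.8 TPM in PRC1cKO after Win18446, and *Col1a1* was called lower, at 62.3 and 88.8 TPM against 16.3 and 24.2 TPM. The other 7 stromal markers summed to 40.7 and 25.3 TPM in PRC1ctrl and 39.4 and 31.6 TPM in PRC1cKO, which overlapped, and among them *Des* had a log2 fold change of 0.81 (adjusted p = 0.0233). All 8 stromal markers, with *Col1a1*, summed to 2.34 to 5.24 TPM at 2 mo and to 13.3 to 56.0 TPM in WT. Their part in the lower *Rian*, *Mirg*, *Dio3*, *Zdbf2* and *Zim1* was not tested. Without the first PRC1ctrl library, *Rian* (-1.56), *Mirg* (-1.21), *Dio3* (-1.28) and *Zdbf2* (-1.33) were called and *Zim1* was not (-1.04, adjusted p = 0.0777), and *Dlk1*, *H19*, *Ascl2* and *Ndn* no longer had an adjusted p under 0.05. In bulk libraries, fewer cells of a type and less RNA per cell cannot be told apart.

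The 7 Sertoli markers summed to 52.1 to 76.2 TPM in PRC1ctrl and 59.5 to 88.9 TPM in PRC1cKO after Win18446, with 0 of the 6 tested called. The 5 spermatid markers summed to 116 to 127 TPM in PRC1ctrl and 16.9 to 17.1 TPM in PRC1cKO after Win18446, and to 746 to 1735 TPM against 49.2 to 57.3 TPM at 2 mo, with *Prm1*, *Prm2* and *Tnp2* called lower in both. *Prm2* and *Acrv1* were listed at 0 in both PRC1cKO libraries after Win18446. *Kit* was higher under the label PRC1cKO after Win18446, at 6.48 and 8.15 TPM against 20.4 and 22.0 TPM (log2 fold change 1.42, adjusted p = 0.0026), whereas *Stra8*, the other marker of differentiating spermatogonia, was at 10.7 and 12.4 TPM against 7.91 and 7.9 TPM (log2 fold change -0.50, adjusted p = 0.046). The part of either in the higher *Grb10* and *Ascl2* was not tested. The 4 spermatocyte markers summed to 74.7 to 95.2 TPM against 40.3 to 45.6 TPM after Win18446, with *Spo11* (-1.33) and *Mybl1* (-1.24) called lower. The 5 macrophage and 3 endothelial markers summed to at most 17.1 and 14.3 TPM in any library, and 0 of either were called. In WT, 0 of the tested Sertoli, Leydig, stromal, macrophage, endothelial, spermatocyte and spermatid markers were called, whereas *Kit* and *Stra8* were called higher in A_diff. Of the 29 of those markers tested, 5 had an adjusted p under 0.05 with a smaller fold, *Wt1* (log2 fold change -0.82), *Col1a1* (-0.95), *Cd14* (-0.94), *Tnp1* (-0.51) and *Sycp1* (0.66). The Sertoli sums did not overlap, at 27.0 to 31.5 TPM in A_undiff and 17.0 to 17.7 TPM in A_diff. Neither did the spermatid sums, at 759 to 836 TPM in A_undiff and 520 to 704 TPM in A_diff. The part of either in the 5 lower members was not tested.

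**Figure D5:**
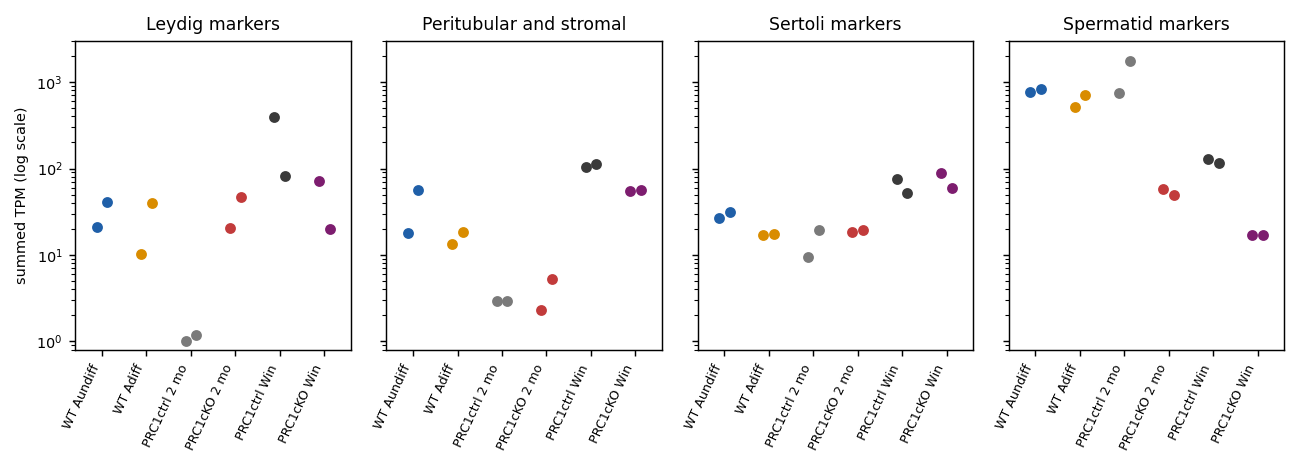
Summed TPM of Leydig (5 genes), peritubular and stromal (8), Sertoli (7) and spermatid (5) markers in each library, by group, on a shared log axis. Points are libraries; the first PRC1ctrl library after Win18446 reached 396 TPM of Leydig markers, and spermatid markers were lower in PRC1cKO than in PRC1ctrl in both settings.

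Beyond the 39 members, 38 other imprinted genes were read from a second list. In WT, 5 of 25 tested were higher in A_diff and 3 were lower, where 11.1% of all genes were higher and 9.24% were lower. The higher genes included *Ano1*, a chloride channel at 5.18 and 3.65 TPM in A_undiff and 15.3 and 17.6 TPM in A_diff (log2 fold change 1.70, adjusted p = 0.0036), together with *Peg12* (1.27), *Cobl* (1.22), *Osbpl5* (1.21) and *Casd1* (1.06). The lower genes included *Cdkn1c*, a cyclin-dependent kinase inhibitor at 57.5 and 56.2 TPM against 17.8 and 20.8 TPM (log2 fold change -1.51, adjusted p = 0.0017), together with *Zfp264* (-1.35) and *Slc38a4* (-1.09). *Cdkn1c*, *Phlda2* and *Ascl2* belong to the same *Kcnq1* domain, in which the first 2 were lower and *Ascl2* was higher in A_diff. Under the label PRC1cKO, 0 of 22 were called at 2 mo by limma, where 0.222% of all genes were higher and 1.94% were lower. After Win18446 it was 0 of 27, where 1.27% were higher and 10.9% were lower.

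Of 16 genes that set, read or erase the methylation of imprints, 14 were tested in WT, and 6 were higher and 1 was lower in A_diff, where 11.1% of all genes were higher and 9.24% were lower. The maintenance methyltransferase *Dnmt1* was at 106 and 114 TPM in A_undiff and 242 and 247 TPM in A_diff (log2 fold change 1.15, adjusted p = 0.0017). Its cofactor *Uhrf1* (1.43), the de novo methyltransferase *Dnmt3b* (1.48), the insulator protein gene *Ctcf* (1.10), the dioxygenase gene *Tet3* (1.22) and the KRAB zinc finger gene *Zfp445* (1.38) were also higher. *Dnmt3l*, the cofactor of de novo methylation, was lower, at 6.57 and 10.7 TPM against 1.96 and 1.42 TPM (log2 fold change -1.81, adjusted p = 0.0063). *Zfp57* itself was at 2.68 and 2.97 TPM against 5.06 and 5.21 TPM and did not pass (adjusted p = 0.0602). These libraries give RNA levels and no methylation.

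After Win18446, 4 of the 16 regulators were lower under the label PRC1cKO and 0 were higher, where 10.9% of all genes were lower and 1.27% were higher. *Tet3* was at 47.1 and 64.0 TPM in PRC1ctrl and 8.08 and 12.99 TPM in PRC1cKO (log2 fold change -2.31, adjusted p = 0.0029). *Tet2* was at 6.39 and 8.09 TPM against 0.76 and 1.41 TPM (log2 fold change -1.99, adjusted p = 0.0026), and *Tet1* was at 1.87 and 2.86 TPM against 0.47 and 0.71 TPM (log2 fold change -1.07, adjusted p = 0.0117). *Zfp445*, which helps to hold imprints, was at 20.9 and 22.6 TPM against 4.32 and 5.10 TPM (log2 fold change -1.997, adjusted p = 0.0018). The 3 TET genes encode the enzymes that oxidize methylated cytosine. In PRC1ctrl after Win18446 these 4 genes stood above their levels in WT A_undiff, where *Tet3* was at 5.67 and 7.56 TPM and *Zfp445* at 2.36 and 3.50 TPM. The interaction was called lower for *Tet3* (-2.48), *Zfp445* (-2.26) and *Ctcfl* (-1.62), where 4.98% of all genes were lower and 2.76% were higher. *Tet3* was at only 0.99 to 1.65 TPM at 2 mo. *Tet2* (-2.75) was also called but was too low to be tested at 2 mo. Its value is therefore no test of a change with treatment. The share of lower interaction calls among all genes fell from 64.4% to 22.5% under median-of-ratios scaling. At 2 mo 0 of the 15 regulators tested were called, where 0.222% of all genes were higher and 1.94% were lower.

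Several members likewise stood higher in PRC1ctrl after Win18446 than in WT A_undiff, both from stranded polyA libraries but of different genotype, background and treatment, which cannot be told apart. The ratio of the means was 7.48 for *Peg10*, 5.24 for *Plagl1*, 4.48 for *Rian*, 4.07 for *Dlk1*, 3.50 for *Zdbf2* and 2.54 for *Igf2r*. *Rian* stood at 12.4 and 9.90 TPM in WT A_undiff, *Zdbf2* at 4.39 and 3.98 TPM and *Peg10* at 2.83 and 3.87 TPM. The values of *Rian* and *Zdbf2* in PRC1cKO after Win18446 were above those of WT A_undiff, and those of *Dio3* were below. *H19* went the other way, with a mean 3.63-fold higher in WT A_undiff than in PRC1ctrl after Win18446. It was not the only one, with ratios of 0.60 for *Mest*, 0.67 for *Tssc4* and 0.76 for *Ascl2*, among others. These 2 groups were not compared by a test. By group mean, 15 of the 39 members were highest in PRC1ctrl after Win18446, 8 in WT A_diff, 6 in PRC1ctrl at 2 mo, 4 in WT A_undiff and 3 in each PRC1cKO group. The same count was not made over all genes. PRC1ctrl after Win18446 also held the most genes at 1 TPM or more, 16537 and 16599. The count is therefore not a trait shown for imprinted genes.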

How the data were processed

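RNA-seq of 12 libraries in 6 groups of 2 was analysed. The authors deposited 1 table of TPM per gene, computed with RSEM 1.3.3, and the submitters' processing notes also name Trim Galore 0.6.6, HISAT2 2.2.1, SAMtools 1.9, HTSeq 1.6.0 and DESeq2 1.28.1. Read depth is unknown, since TPM keeps no counts, so a counting error could not be given. Of 55385 gene identifiers, 54814 had the coordinates of gencode M21 (GRCm38).

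Values were taken as log2(TPM + 1), and fold changes on this scale understate changes of low genes. Genes with at least 1 TPM in at least 2 of the libraries compared were tested with limma 3.58.1 in R 4.3.3 (moderated variance with trend and robust options, two-sided), adjusted by Benjamini-Hochberg over all genes tested, and called at adjusted p below 0.05 with a log2 fold change beyond 1 in size. Each library was made from cells pooled over mice, and the study's methods call the 2 libraries of a group independent biological replicates. The interaction used all 8 PRC1 libraries. With 2 libraries against 2, an exact permutation test cannot go below p = 0.33, so none was used. The procedure was also run on simulated data with independent noise in each library. That run cannot show how deviations shared by same-numbered libraries act on the calls. Promoters are RefSeq windows, for 33 of 40 members.

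Each member was accounted for by domain. Values per library were given for members called in a comparison and for the 8 with the highest mean TPM. The members and lists were chosen with earlier results of these data known. Alternatives were a pseudocount of 0.1, no filter, a filter for a mean of 5 TPM, median-of-ratios scaling, a replicate block and leaving out each library. Exon overlaps and retrocopies make single genes uncertain, and strand is not stated for the 2 mo libraries. Tables were made with Python 3.11.15, pandas and matplotlib.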

Additional observations from a re-analysis of the deposited data

How the results depend on the processing

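The number of called imprinted genes in WT (9) lay between 7 and 10 under all alternatives except the filter for a mean of 5 TPM, which tested fewer members and called 5. After Win18446 (5) it was 3 under that filter, and all genes then numbered 955. Without each library it ranged from 4 to 7. The median log2 fold change of members after Win18446 was -0.18 without a filter on low values, -0.23 with median-of-ratios scaling and -0.44 to -0.28 without single libraries, where all genes called ranged from 1189 to 2120. At 2 mo the calls among all genes (301) were 0 without a filter, 96 at a mean of 5 TPM and 78 to 168 without single libraries. Median-of-ratios scaling gave 1 member and 914 genes. With a replicate block there were 3 members (*Dlk1*, *Ppp1r9a* and *Slc22a18*) and 2172 genes. In the interaction, all genes called (1420) were 469 with a pseudocount of 0.1, 787 without a filter, 176 at a mean of 5 TPM and 21 to 1436 without single libraries. The replicate block gave 2 members (*Dlk1* and *Peg10*) and 2938 genes, and leaving out single libraries gave 0 to 1 member (*Nnat*). Its median over members was 0.30 with median-of-ratios scaling and -0.58 to -0.00048 without single libraries. The cause was not tested. Same-numbered libraries deviated together (correlations of 0.158 in WT, 0.381 at 2 mo and 0.122 after Win18446). At 2 mo the first PRC1ctrl and PRC1cKO libraries held 12422 and 12451 genes at 1 TPM or more, and the second held 13986 and 13826. Nothing in the labels ties same-numbered libraries to a shared animal or day, so whether they share a batch is not known. The block moved no call of a member in WT or after Win18446. The unknown depth and 2 libraries per group limit the low members most.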

Other observations

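The gene identifier that gencode M21 pairs with *Nespas* (ENSMUSG00000086537) is listed under the name *Gnasas1* in the deposited table. It was found by its identifier and entered no comparison. Its TPM was 0.63 and 0.85 in WT A_undiff, 0.82 and 0.77 in WT A_diff, 0.03 and 0.20 in PRC1ctrl and 0.38 and 0.50 in PRC1cKO at 2 mo, and 0.33 and 0.67 in PRC1ctrl and 0.65 and 0.42 in PRC1cKO after Win18446.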
